A study of Mus musculus with 17 samples.

Results

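The sites described here are BRG1 peaks of mouse spermatogenic cells that were found at postnatal day 12 (P12), were not found at postnatal day 18 (P18), and lay beside a region of H3K27 acetylation without touching its bases. They were chosen by position in 3 deposited lists. A member is a P12 BRG1 peak on chromosomes 1 to 19 that overlaps no P18 BRG1 peak and no H3K27ac region common to both genotypes of a knockout comparison, with a gap of at most 5000 bp to the nearest common region. The rule found 4774 members among 18336 autosomal P12 peaks (26.0%, 95% interval 25.4 to 26.7) and among 18630 P12 peaks in all. Of the remaining autosomal peaks, 8239 were at P12 alone on common H3K27ac, 2415 were at P12 alone and more than 5 kb from it, called remote here, and 2550 and 358 overlapped a P18 peak on and off common H3K27ac.

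BRG1 was immunoprecipitated from micrococcal nuclease-digested chromatin of wild type CD1 mice, with 2 libraries at P12 and 2 at P18. H3K27ac was mapped at P12 on a mixed strain background, in 2 Brg1WT and 2 Brg1cKO libraries, where Mvh-cre, a Cre expressed in germ cells, removes Brg1. A common H3K27ac region is therefore one that the authors listed for both genotypes, in other animals than those of the BRG1 ChIP. Each BRG1 list stands for 2 libraries together, the H3K27ac lists come from all 4 H3K27ac libraries, and the read depth behind them is not known, so no value below has replicate error, and the intervals cover counting error only. Whether a site missing at P18 was lost with age or fell under the threshold of the P18 list, which holds 3020 peaks, cannot be told apart.

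SWI/SNF complexes slide or evict nucleosomes, and BRG1 is the subunit that burns ATP to do so. H3K27ac is carried by nucleosomes at active promoters and enhancers. Remodellers and transcription factors at such elements often sit in the nucleosome-poor stretch between acetylated nucleosomes, so a BRG1 peak can lie next to an acetylated region and not in it. Whether the members lie in such stretches was not tested. In the testis, the first wave of germ cells enters meiosis by P12 and is rich in pachytene spermatocytes by P18. Positions are in build mm9, counted from 1. A genome and annotation of that build were not used here, so neither bases nor genes are given for these sites.

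Members had small gaps to common H3K27ac more often than large ones. Their median gap to the nearest common region was 1287 bp (95% interval 1223 to 1345), with 10% of members at 150 bp or less and 10% at 3919.7 bp or more. A gap of at most 1 kb was found for 2043 members, and 4 members touched a common region end to end. Per 100 bp of gap there were 330 members at gaps up to 100 bp, 149 at 500 to 1000 bp and 42.7 at 4 to 5 kb. The decline went on past the limit of the rule without a step, and 1148 further peaks lay at more than 5 kb and up to 10 kb. The 5000 bp limit thus divides a continuous range of gaps. Only the nearest region sets a gap, which favours small gaps for any set of positions, and no reference positions were used. Common regions covered 7.64% of positions at 0.25 kb from the edges of members and 8.63% at 4.75 kb. No crowding toward H3K27ac is therefore read from the decline in gaps.

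**Figure D1:**
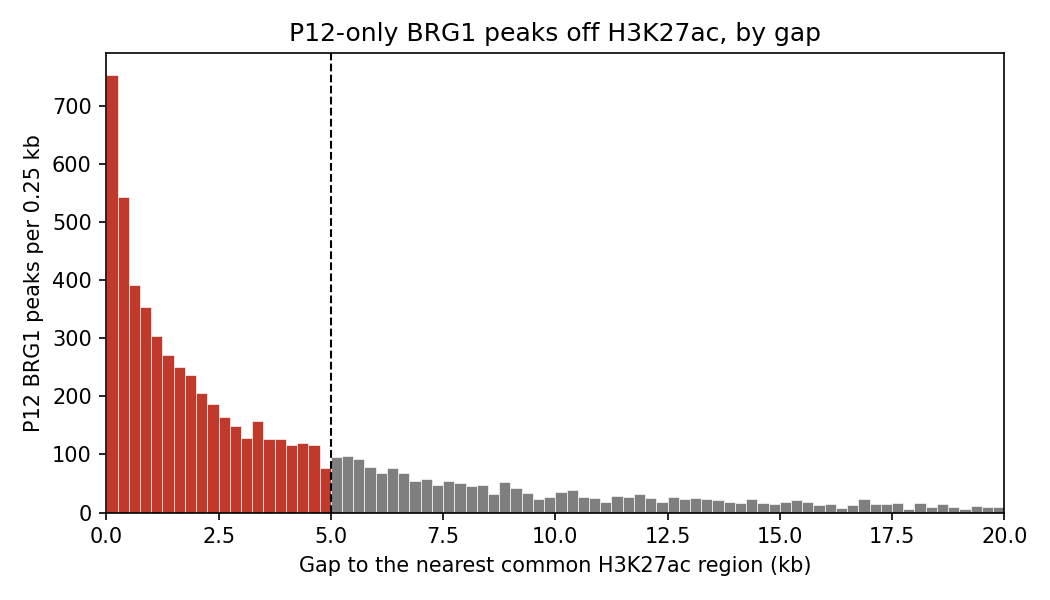
P12 BRG1 peaks that overlap neither a P18 peak nor a common H3K27ac region, counted per 0.25 kb of gap to the nearest common H3K27ac region (x axis, kb). Members are red, remote peaks grey and the dashed line marks 5 kb; 510 remote peaks lie beyond the right end at 20 kb.

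Just inside the 5000 bp limit lay chr10:59681361-59681972 with a −log10 q of 3.62, chr17:87152384-87155466 with 4.63 and chr14:112080206-112080736 with 2.16, each 4.99 kb from H3K27ac. Just outside lay chr11:57614971-57616112 with a −log10 q of 5.41, chr1:196445853-196446965 with 3.43 and chr12:3954705-3954980 with 2.18, at 5.00, 5.01 and 5.01 kb. The −log10 q is the significance that the authors' peak caller gave each peak, where a larger value means a stronger peak. The 3 values inside and the 3 outside overlap.

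Some members lay between acetylated regions, as did P12 peaks of other classes. A common region stood within 5 kb on both sides of 2051 members (43.0%, 41.6 to 44.4), and within 1 kb on both sides of 293 (6.14%, 5.47 to 6.86). Over all autosomal P12 peaks the shares were 37.3% and 6.4%. They were 45.6% and 8.39% for peaks at P12 alone on H3K27ac and 37.0% and 6.71% for peaks at both ages on it, and by definition 0 for remote peaks. For these 293 the distance between the edges of the flanking regions had a median of 1282 bp (1240 to 1346), of which the BRG1 peak filled a median of 33.4% (29.0 to 37.2). The peak was not always central. Its centre lay a median of 151.5 bp from the middle between the flanking edges, where the choice of gaps up to 1 kb allows no more than 500 bp. This offset was not measured for other classes or for random positions, so no tendency toward the middle is read from it.

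**Figure D2:**
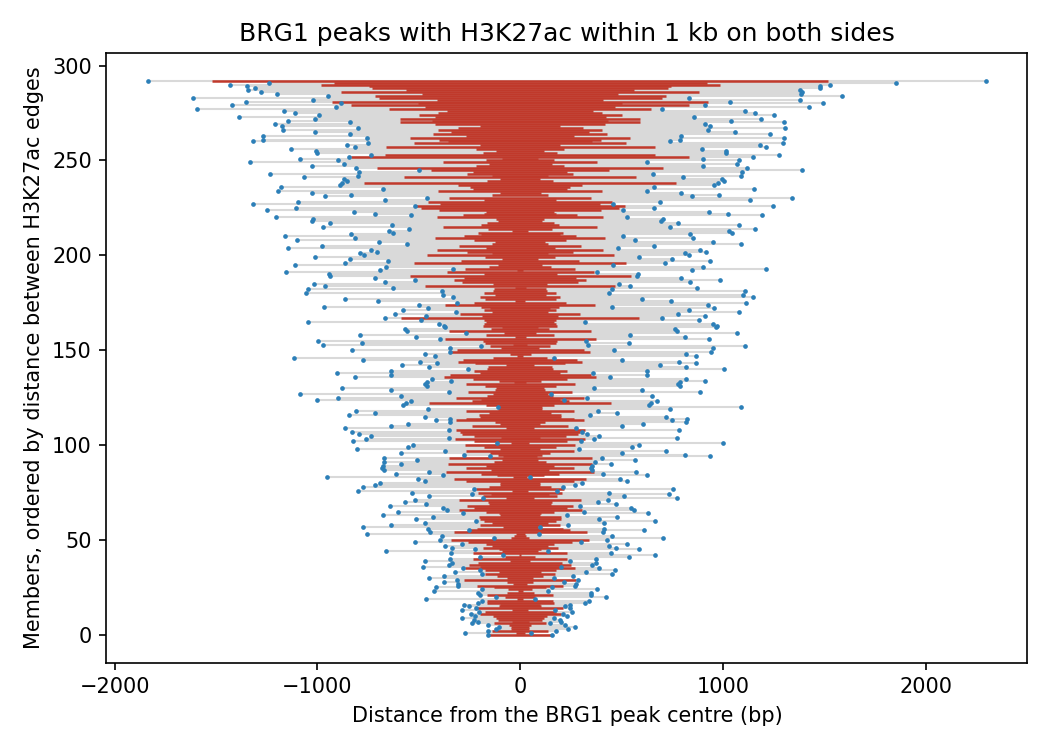
The 293 members with common H3K27ac within 1 kb on both sides, 1 per line, ordered by the distance between the flanking H3K27ac edges (y axis). The x axis is the distance from the BRG1 peak centre in bp; red lines are the BRG1 peaks, blue points the nearest H3K27ac edges and grey lines the stretch between them, from 314 bp for the shortest to 4130 bp for the longest.

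The strongest of these enclosed peaks was chr8:114167394-114168577, 1184 bp wide with a −log10 q of 11.7, with H3K27ac at 248 bp on the left and 708 bp on the right. The next was chr5:142843419-142843951, 533 bp wide with a −log10 q of 10.2, between edges at 203 and 259 bp. The third was chr6:142705271-142705793, 523 bp wide with a −log10 q of 9.28, at 379 and 34 bp from its flanking edges. In this set of 3, only the chr6 peak had flanking regions with consecutive numbers in their names. The other 2 of the top 5 were chr5:146041388-146041685 with a −log10 q of 8.47 and chr10:30337875-30338230 with 8.36, which were 298 and 356 bp wide.

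The numbers in the names of common H3K27ac regions rise along each chromosome with gaps, and the 170137 regions carry numbers up to 426566. Between the 2 regions that flank a member, at least 1 number was missing from the list for 4351 members (91.1%, 90.3 to 91.9), with a median of 3 missing numbers over all members. Missing numbers are not particular to members. No number was missing for 8.86% (8.07 to 9.70) of members, 2.94% (2.30 to 3.69) of remote peaks and 4.19% (2.36 to 6.82) of peaks at both ages off H3K27ac. The median for remote peaks was 5 missing numbers. Whether a region with a missing number lay on the member was not tested, because its position is not in the lists used here. The other 423 members lay between regions with consecutive numbers or in 1 interrupted region, and 13 members lay between pieces that share 1 name. These 423 had a median gap of 356 bp (267 to 412) and a median width of 346 bp (322 to 380), against 1390 and 520 bp for the other members, and 72.8% of them had H3K27ac within 5 kb on both sides. Flanks with no missing number are also closer together, with a median distance of 3113 bp against 9170 bp.

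Members were weak and narrow peaks for the P12 list. Their median −log10 q was 3.11 (3.07 to 3.17), against 4.25 (4.18 to 4.30) for peaks at P12 alone on H3K27ac and 3.22 (3.15 to 3.28) for remote peaks. Peaks found at both ages on H3K27ac had a median of 7.11. The median width of members was 503 bp (488 to 519), against 845 bp on H3K27ac, 621 bp for remote peaks and 1301 bp for peaks at both ages on H3K27ac. A wide peak meets an H3K27ac region or a P18 peak more easily, so the width of members is not independent of the rule. No test between classes was made, and whether the rule also bears on strength was not tested. Remote peaks also overlap neither a common H3K27ac region nor a P18 peak. Between them and members the intervals of the median overlapped in −log10 q and did not overlap in width. Members must fit beside H3K27ac within 5 kb, which remote peaks need not, so this comparison of width is not free of the rule. Members with H3K27ac within 5 kb on both sides had a median width of 459 bp, against 534 bp with it on 1 side.

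**Figure D3:**
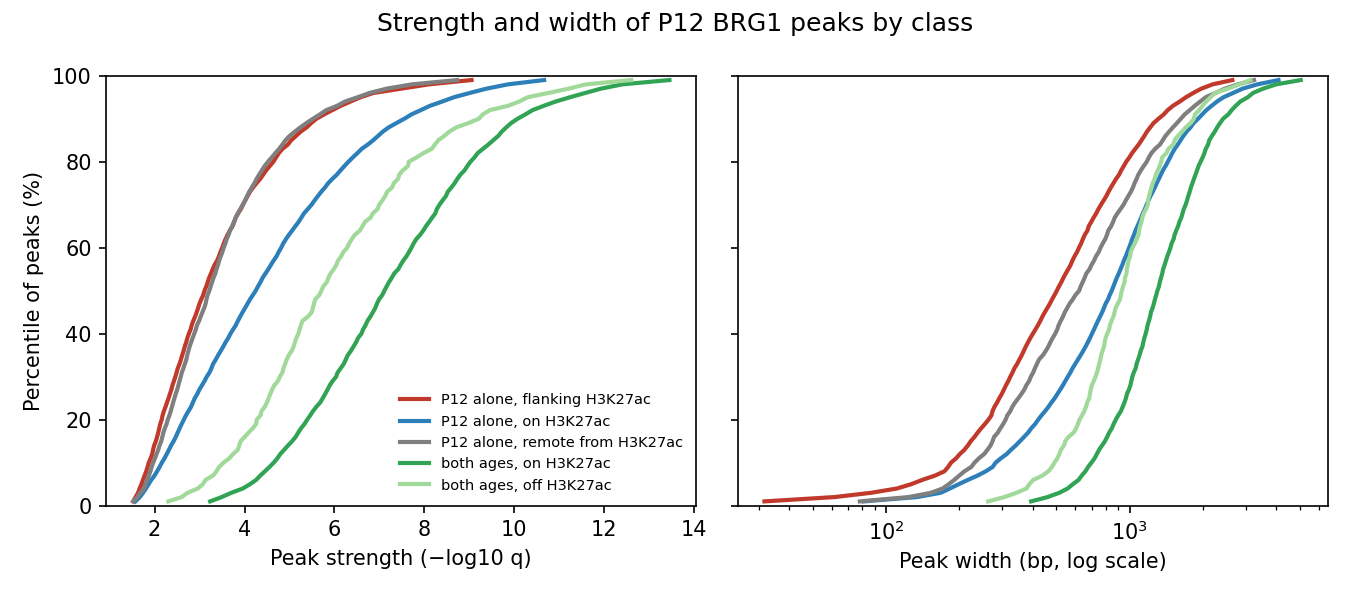
Percentiles of peak strength (left, −log10 q) and of peak width (right, bp on a log axis) for 5 classes of autosomal P12 BRG1 peaks. Members (red) have a median strength of 3.11, against 3.22 for the remote peaks (grey), and the lowest median width of the 5 classes, at 503 bp.

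Share and strength were tied across the whole P12 list. With all autosomal P12 peaks in 10 bins of strength, members made up 44.7% (42.4 to 47.0) of the weakest bin, 33.9% of the fourth and 5.94% (4.91 to 7.12) of the strongest, while the share that overlapped a P18 peak went from 0.0545% to 55.2%. Among the peaks off both lists, the members' share moved far less, from 72.2% in the weakest bin to 62.1% in the fourth and 70.8% in the strongest. Among these peaks, the share within 5 kb of H3K27ac was thus not ordered by strength. This does not extend to peaks on H3K27ac, which had higher median −log10 q values than members and remote peaks. It also does not extend to H3K27ac on both sides. With members in 4 groups of rising strength, H3K27ac lay within 5 kb on both sides of 47%, 45.4%, 41.7% and 37.8%. Across members, the rank correlation of gap with −log10 q was 0.003, and of gap with width 0.11 (Spearman's rho over 4774 peaks from the same libraries, given as a description).

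**Figure D4:**
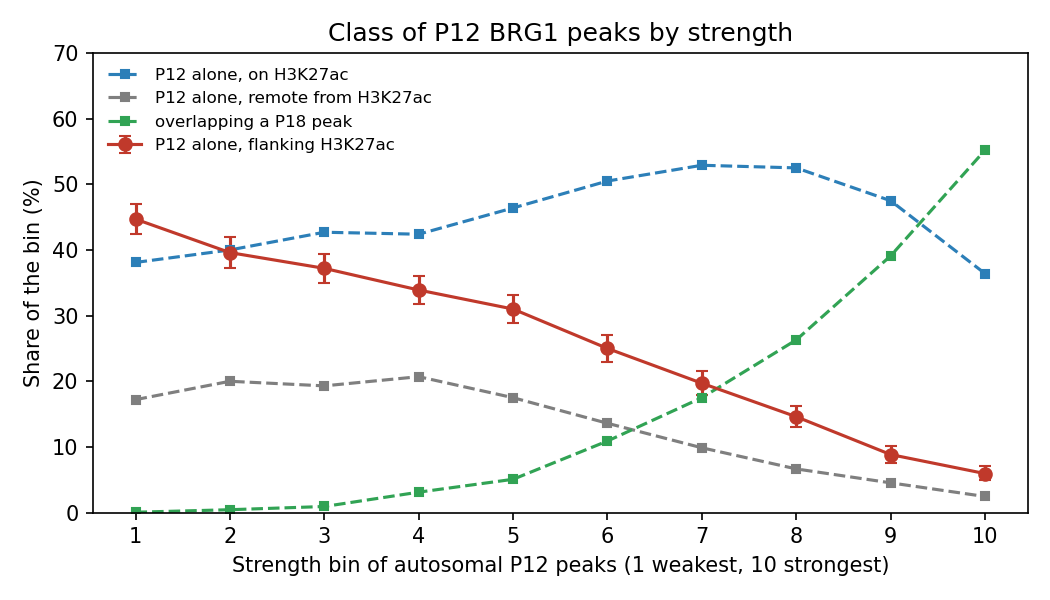
Share of each class (y axis, %) in 10 bins of peak strength of autosomal P12 BRG1 peaks, from weakest to strongest (x axis). Red points are members with exact 95% intervals; squares are the other classes, and the members' share falls from 44.7% to 5.94%.

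A few members were strong. A −log10 q of at least 10 was reached by 25 members (0.524%), and 2529 (53.0%, 51.5 to 54.4) reached 3. A value of 3 was reached by 72.9% of peaks at P12 alone on H3K27ac, 56.6% (54.6 to 58.6) of remote peaks and 99.5% of peaks at both ages on H3K27ac. The 99th percentile was 9.05 for members, and 10.7, 8.73 and 13.5 for these classes in the same order. The strongest member was chr4:150431411-150432046, 636 bp wide with a −log10 q of 15.1, with H3K27ac 2.14 kb to its left and the nearest P18 peak 202 kb away. It was followed by chr18:13099866-13100392 with a −log10 q of 14.4, which lay 2.71 kb from H3K27ac and 1740 kb from a P18 peak. The third, chr1:5073233-5073660 with a −log10 q of 13.0, stood near the limit of the rule at 4.26 kb, and the nearest common region on its other side was 106 kb away. Next came chr11:11362048-11362468 with a −log10 q of 12.3 at 0.929 kb from H3K27ac, and chr18:34490458-34491197 with 11.9 at 0.092 kb.

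The remaining members of the top 10 ranged in −log10 q from 11.4 to 11.8. They were chr1:183081150-183081507, chr9:86358173-86358554, chr8:114167394-114168577, chr1:136851924-136852480 and chr9:8042470-8042873. Among the 10, chr9:86358173-86358554 lay nearest to a P18 peak, at 2.35 kb, and chr9:8042470-8042873 farthest, at 5590 kb. All of the top 10 except the chr8 peak were between 358 and 740 bp wide, and the chr8 peak was 1184 bp wide. Strength and width were loosely tied among members, with a rank correlation of 0.386.

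None of the 5 widest members was among the 10 strongest. The 5 widest were chr11:98186483-98191747 (5265 bp), chr2:119147752-119153008 (5257 bp), chr8:94879544-94884717 (5174 bp), chr7:144504709-144509414 (4706 bp) and chr5:137504682-137509045 (4364 bp), with −log10 q values between 3.29 and 5.42, all above the members' median of 3.11. At the other end, 70 members (1.47%) were narrower than 50 bp, the narrowest 2 bp, which is shorter than a nucleosome. Members wider than 1000 bp numbered 902 (18.9%). The 1st percentile of width was 31.7 bp for members, 81.1 bp for peaks at P12 alone on H3K27ac and 78.1 bp for remote peaks. The 75th percentile was 858.75, 1293 and 1048 bp in the same order.

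Members often had another BRG1 peak near them. A further P12 peak lay within 5 kb of 1603 members (33.6%, 32.2 to 34.9), where the share over all autosomal P12 peaks was 26.2%. It was 27% (26.1 to 28.0) for peaks at P12 alone on H3K27ac, 22.4% (20.7 to 24.1) for remote peaks and 14.7% (13.4 to 16.2) for peaks at both ages on H3K27ac. The nearest such neighbour of a member was a peak at P12 alone on H3K27ac in 46.9% of cases, another member in 37.6%, a peak at both ages on H3K27ac in 9.23% and a remote peak in 5.49%. Among all autosomal P12 peaks, peaks on H3K27ac at P12 alone made up 44.9%, members 26.0%, peaks at both ages on it 13.9% and remote peaks 13.2%. A name was shared with another P12 peak by 174 members (3.64%), and such pieces carry 1 value of strength. The share was 3.42% for peaks at P12 alone on H3K27ac, 1.86% for remote peaks and 1.65% for peaks at both ages on H3K27ac. Without the 174 members the share of members with a neighbour was 31.1%.

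Most members stood alone among members. Joining members at gaps of up to 5 kb gave 4062 single members, 287 pairs and 39 runs of 3. Only 4 runs held 4 members and 1 held more. Runs were not counted for other classes, so these counts do not set members apart. The longest run had 5 members over 15.9 kb at chr10:80785133-80801059, with −log10 q values from 1.84 to 3.97, widths of 563 to 1208 bp and 4 common H3K27ac regions in the stretch. It holds 4 peak names, since 2 of its members are pieces of 1 named peak, and 1 further P12 peak that is no member lies within the run. A run of 4 at chr4:41669946-41678507 spanned 8.56 kb with −log10 q values from 2.80 to 5.46, and one at chr4:140800810-140807074 spanned 6.26 kb with values from 1.73 to 3.03. In these 3 runs the gaps to H3K27ac lay between 31 and 2259 bp.

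The nearest acetylated region of a member was of ordinary width, and as with common regions in general it was seldom itself a BRG1 site. Its median width was 276 bp (272 to 279), against 271 bp for all common regions. A P12 peak overlapped it in 403 cases (8.44%, 7.67 to 9.27) and a P18 peak in 39 (0.817%, 0.582 to 1.12). Of all common regions, here not limited to autosomes, 9.01% were overlapped by a P12 peak and 1.74% by a P18 peak. The share with a P12 peak was 8.16% (7.10 to 9.32) for remote peaks, 5.90% for peaks at P12 alone on H3K27ac and 3.92% for peaks at both ages on H3K27ac, where a region that the peak itself overlaps was not counted as its nearest. The members' share with a P12 peak was near that of all common regions, and their share with a P18 peak was lower. The share with a P18 peak was 0.911% (0.572 to 1.38) for remote peaks and 0.558% for peaks at P12 alone on H3K27ac. It was 1.14% and 2.51% for peaks at both ages on and off H3K27ac. Members were chosen to overlap no P18 peak, and nothing is read from either share about the members.

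Beyond the 5 kb that the rule used, the surroundings of members held nearly as much H3K27ac as those of peaks on H3K27ac. From 5 to 20 kb outside the peak edges, common regions covered a median of 5.88% (5.65 to 6.10) of bases around members. The median was 6.17% (6.03 to 6.32) around peaks at P12 alone on H3K27ac, 1.71% (1.60 to 1.79) around remote peaks and 4.22% (4.01 to 4.44) around peaks at both ages on H3K27ac. Acetylated regions occur in groups, so this band is not independent of the 5 kb used to choose members, and no test was made. At 10 kb from the edge, 7.28% of positions around members lay in a common region, against 7.68%, 2.44% and 5.67% for the other classes in the same order.

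**Figure D5:**
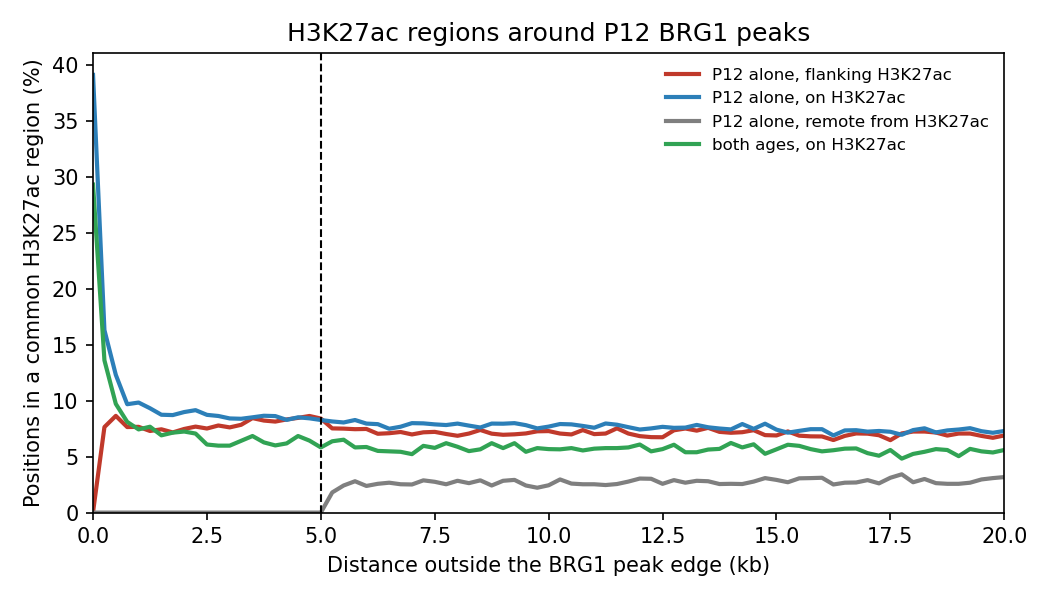
Share of positions that lie in a common H3K27ac region (y axis, %) at each distance outside the edges of P12 BRG1 peaks (x axis, kb; both sides joined, steps of 0.25 kb), for 4 classes. To the right of the dashed line at 5 kb, members (red) run near the peaks on H3K27ac (blue) and above the remote peaks (grey); to its left the curves are set by how the classes were chosen.

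Weaker members lay where H3K27ac and BRG1 peaks were denser. Members were split by strength into 4 groups of 1193 or 1194. In the weakest group (−log10 q of 1.34 to 2.31) the median H3K27ac cover from 5 to 20 kb was 7.19%, and in the following groups it was 6.23%, 5.45% and 4.52%. The weakest group had the higher median in 19 of 19 chromosomes when set against the strongest. The share with another P12 peak within 5 kb went from 41.4% over 37.6% and 33.4% to 21.9%, and the weakest group was above the strongest in 18 of 19 chromosomes. The rank correlation across members was weak, at −0.165 for strength with H3K27ac cover. Peaks at P12 alone on H3K27ac had the same order, from 8.52% in the weakest to 4.22% in the strongest group. So did peaks at both ages on H3K27ac, from 5.68% to 3.58%, while remote peaks were at 1.74% and 1.87%. The share with another P12 peak within 5 kb was lower in the strongest than in the weakest group of each of these classes, at 37.4% and 13.3% for P12 alone on H3K27ac, 25.7% and 7.84% for both ages on it and 25.5% and 16.2% for remote peaks. The order by strength is thus not particular to members. Local read background, which could differ between such surroundings, is not in the lists, and its part was not tested.

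Few members came near a P18 peak. A P18 peak lay within 5 kb of 188 members (3.94%, 3.40 to 4.53), where the share over all autosomal P12 peaks that no P18 peak overlaps was 2.76%. It was 2.68% for peaks at P12 alone on H3K27ac and 0.704% for remote peaks. In 181 of the 188 cases (96.3%, 92.5 to 98.5) that P18 peak overlapped a different P12 peak, as did 97.8% of all P18 peaks. For 14 members (0.293%, 0.16 to 0.492) a P18 peak lay within 1 kb, the nearest at 26 bp. In 9 of these 14 cases (64.3%, 35.1 to 87.2) the P18 peak overlapped a different P12 peak. The share within 1 kb was not computed for other classes. The 3 strongest of these 14, named after their values were seen, were chr1:62842240-62842709, chr11:117515211-117515840 and chr12:60114447-60114568, with −log10 q values of 6.27, 6.24 and 6.21. The median distance of members to a P18 peak was 104 kb, against 107 kb for peaks at P12 alone on H3K27ac and 220 kb for remote peaks.

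H3K27ac regions that the authors classed as gained or lost in Brg1cKO were rarely near members. A gained region lay within 5 kb of 37 members (0.775%, 0.546 to 1.07), where the share over all autosomal P12 peaks was 0.731%. A lost region lay within 5 kb of 43 members (0.901%, 0.653 to 1.21), where it was 0.829%. Either kind lay within 5 kb of 80 members (1.68%, 1.33 to 2.08), against 1.56%. These shares were near those of all P12 peaks, and nothing is read from them about the members. Of the autosomal changed regions, 38 of 768 lost (4.95%) and 38 of 955 gained (3.98%) lay within 5 kb of a member. The share of common regions within 5 kb of a member was not computed, so nothing is read from these counts of changed regions. Common, gained and lost regions come from 1 deposited comparison of the genotypes, so none of these shares is independent of the rule.

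The members near a lost region included strong peaks. The strongest was chr13:99032643-99033675, with a −log10 q of 9.42, 0.107 kb from a common region and 2479 bp from a lost region of 108 bp at chr13:99030056-99030163. The next, chr13:12553417-12554089 with a −log10 q of 8.76, had a lost region of 59 bp at a gap of 766 bp. The others were chr3:63768007-63768534, chr4:149382521-149383231 and chr14:32149864-32150384, with −log10 q values of 7.51, 7.46 and 7.42 and lost regions at 2014, 877 and 3705 bp. Overlap with a lost region was found for 0 of 4774 members (exact 95% interval 0 to 0.0772%), and for 0.0436% of all autosomal P12 peaks, or 8 peaks.

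A gained region was overlapped by 5 members (0.105%, 0.0340 to 0.244) and by 0.0709% of all autosomal P12 peaks, or 13 peaks. Among remote peaks the counts were 3 gained and 0 lost. These counts are too small to set members apart, and the 5 members are named after their values were seen. They were chr1:74900932-74903158, chr11:72973807-72974327, chr13:38242980-38244300, chr15:26824593-26825620 and chr19:56796153-56798355, with −log10 q values from 2.46 to 4.98. At the chr1 member the gained region was 167 bp wide and lay wholly inside the BRG1 peak, as did those of 75 and 124 bp at the chr15 and chr19 members. The strongest member within 5 kb of a gained region was chr6:56873421-56874167 with a −log10 q of 11.3, and its gained region, 1512 bp away, was 12 bp wide. It was followed by chr11:86620600-86621440 with 6.38, chr6:17413625-17414375 with 6.02, chr9:20446379-20447762 with 5.76 and chr13:52678246-52679054 with 5.61.

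Members were spread over all 19 autosomes. Their share of the P12 peaks of a chromosome ran from 19.2% (16.2 to 22.6) on chromosome 13 to 30.0% (27.7 to 32.4) on chromosome 7. Chromosomes 8 and 15 followed with 29.2% and 28.8%, and chromosome 16 was second lowest with 21.7%. Chromosomes 13 and 7 are the lowest and highest of 19, picked after the shares were seen. Their intervals cover counting error only, and no difference between chromosomes was tested. In all, members covered 3.14 Mb.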

How the data were processed

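BRG1 peaks at P12 and P18 and H3K27ac regions of P12 Brg1WT and Brg1cKO cells were used as deposited. The build is mm9, and MACS2, deepTools 2.5.2, Picard, SAMtools, Bowtie and Bowtie2 were among the tools, per the submitters' processing notes; what each did is not stated there. Per the labels, a BRG1 list stands for the 2 libraries of its age. The way they were joined is not known, and the names inside carry the mark of 1 library or batch. Peak strength is the −log10 q value that the authors deposited, used within the P12 list only. The other deposited value columns, H2AK119ub1 and the inputs were not analysed here.

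Overlap meant at least 1 bp, and gaps run from edge to edge. Classes were computed with Python 3.11.15 and pandas 2.3.3, and the interval code was tested on simulated regions. Shares carry exact Clopper-Pearson 95% intervals and medians exact order-statistic intervals. No test was made, since the members were chosen on the lists that hold the measures, and regions are not replicates. Members and measures were chosen with earlier results of these data known. Regions were named by rule: the 10 strongest members, the 5 widest, the 5 strongest enclosed within 1 kb, the 5 strongest near a lost and near a gained region, the 3 longest runs, and 3 peaks on each side of the limit.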

Additional observations from a re-analysis of the deposited data

How the results depend on the processing

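Of 63 values under 9 alternatives, 43 stayed within the interval of the reported value or, for the number of members, within 1.5 times of it, and 20 did not. Merging P12 peaks that overlap or touch could change nothing, since no pair of P12 peaks lay closer than 717 bp. The values under that merging are counted among the 43 but were fixed in advance. Counting a P18 peak within 1 kb as found at P18 left 4760 members. Neither this nor merging H3K27ac regions across 1 kb moved a value out of its interval. With a largest gap of 2 kb there were 3103 members, with a median gap of 653 bp, a median width of 470 bp and H3K27ac within 5 kb on both sides of 53.3%. With 10 kb the median gap was 1843.5 bp, 34.6% had H3K27ac on both sides and 31.3% another P12 peak within 5 kb. With a −log10 q of at least 3 there were 2529 members, with a median strength of 4.16, a median width of 651 bp, H3K27ac on both sides of 39.9% and another P12 peak near 28.1%. With H3K27ac regions of at least 200 bp the median gap was 1352 bp and 40.2% had them on both sides. A limit on gap bounds the gap itself and a limit on strength the strength itself; for the other changes the cause was not tested. A pair of alternatives was added after the data had been seen. Members with no missing number between their flanks numbered 423, with a median gap of 356 bp, a median width of 346 bp, a median strength of 2.85 and H3K27ac on both sides of 72.8%. Members with a name of their own had another P12 peak near 31.1%. The share near a gained or lost region stayed between 1.55% and 1.90% throughout. Read depth is not in the lists, so no limit from depth can be given.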
